A study of Homo sapiens with 44 samples.

Results

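The experiment described here measured how much m6A antibody pull-down of each mRNA changed when Kelly neuroblastoma cells were kept with a METTL3 inhibitor for 6 days. It covers 12 of the 44 libraries of the series, in 4 groups of 3: input and RIP libraries from cultures given DMSO, and input and RIP libraries from cultures given 8 µM STM2457. Kelly is an established human neuroblastoma cell line, labelled as wild type and as carrying an amplified MYCN gene, and all 4 groups share that background. Input libraries sequence sonicated poly(A) RNA as it is, and RIP libraries sequence what an anti-m6A antibody retained of it. The genes described are the 3682 nuclear genes with a mean of at least 50 CPM (counts scaled to the library total) over the 6 inputs, of 13324 genes tested and 19923 listed. They were chosen on input level, where a RIP library rarely holds no fragment at all: 28 of them (0.760%) were at 0 in at least 1 RIP library, against 2777 of the other 9642 tested genes (28.8%). ZFAND3 lay just under that minimum, with a mean of 49.99 CPM and a change of -0.77, and TMEM258 and MEST just over it at 50.05 and 50.06 CPM, with changes of -0.54 and 2.55.

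N6-methyladenosine (m6A) is a methyl mark placed on mRNA while it is made, by a nuclear complex whose catalytic subunit is METTL3. It sits mostly in GGAC-type sequences, in long internal exons and around the stop codon, and reader proteins that bind it affect the splicing, decay and translation of the mRNA. STM2457 occupies the METTL3 pocket for the methyl donor S-adenosylmethionine. In this kind of experiment the enrichment of an mRNA is its level in RIP over its level in input, and it says how the antibody sorted the mRNAs of 1 library against each other, not how many methyl groups each carried.

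As an illustration of the sequence context that the enzyme recognises, 30-base windows of coding sequence around GGACT are given for 2 of the mRNAs with the largest rises of enrichment, NUP85 and NDUFA1, and 2 with the largest falls, TADA3 and FSCN1. Each window is the one nearest the stop codon that lies in 1 exon of the canonical GENCODE 44 transcript (GRCh38), read on the sense strand, and capitals mark GGACT.
NUP85: gcggtgtctggaGGACTtgacgtcaagaag
NDUFA1: ttgttgattccaGGACTggctactgcgtac
TADA3: ggcagaagaagcGGACTcccaccaagaaag
FSCN1: cgacactcctgtGGACTtcttcttcgagtt
They lie at chr17:75235135-75235164 (plus strand), chrX:119871957-119871986 (plus), chr3:9780422-9780451 (minus) and chr7:5605327-5605356 (plus), with 152, 151, 78 and 131 coding bases between the motif and the end of the coding sequence. No peak was measured in these windows, since the deposited values are totals per gene. CDKN1A, which had the largest fall of all, holds 0 GGACT in its coding sequence of 495 bases, but 2 in its whole transcript of 2117 bases. UQCRC1, among the largest rises, holds 0 in its coding sequence of 1443 bases and 0 in its whole transcript.

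The libraries differed in depth and in how well they matched each other. DMSO inputs held 12.09 to 12.78 M fragments on genes and DMSO RIP libraries 10.53 to 11.17 M, while STM2457 inputs held 5.77 to 31.49 M and STM2457 RIP libraries 16.32 to 25.55 M. Over the 3682 genes, log2 CPM correlated at 0.981 to 0.997 between inputs of 1 group, at 0.954 to 0.970 between DMSO RIP libraries and at 0.878 to 0.915 between STM2457 RIP libraries, as a description across genes. DMSO RIP replicate 3 stood apart from its group: mitochondrially encoded mRNA made up 0.0767% of it against 0.265% and 0.302%, and CHGA 7.13% against 5.42% and 4.597%. The labels do not say that replicates came from separate cultures, so p-values measure the spread between these samples, which may be technical. By their markers these were adrenergic neuroblastoma cells: all 10 adrenergic neuroblastoma markers were above 1 CPM in the inputs and summed to 31129 to 31866 CPM under DMSO and 34594 to 38408 CPM under STM2457, against 8.26 to 12.8 CPM for 8 blood markers and at most 1.15 CPM for 6 epithelial ones. Of 10 mesenchymal markers, 4 were above 1 CPM, with a sum of 191 to 215 CPM and PDGFRB highest.

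Enrichment changed for 173 of the 3682 genes: 142 rose and 31 fell with STM2457 (edgeR quasi-likelihood test of the interaction of treatment and library type, Benjamini-Hochberg adjusted p under 0.05 over all genes tested). That is 3.86% and 0.842% of these genes, where 1.26% and 0.803% of all 13324 tested genes were called higher and lower. The called rises ran from 0.78 to 2.79 on the log2 scale with a median of 1.53, and the called falls from -0.86 to -3.03 with a median of -1.30. In all 173, the 3 STM2457 values and the 3 DMSO values did not overlap. The same was true of 778 genes that were higher (21.1%; 13.2% of all tested genes) and 302 that were lower (8.2%; 9.28%). At an unadjusted p under 0.05, which some genes without any change also pass, 784 genes were higher and 221 lower. At that threshold the RIP libraries fitted alone had 448 of these genes higher and 306 lower in STM2457 than in DMSO RIP. The median change of the 3682 genes was 0.27, against 0.20 over all tested genes, and 2411 of the 3682 (65.5%) lay above 0. Leaving out any of the 6 input libraries left 0 of these calls, although all 173 kept their direction and an unadjusted p under 0.05 in each of those fits. The same held for the fits with the replicate number as a block, which called 0 genes. Without DMSO RIP replicate 3 the split turned to 58 higher and 76 lower with a median of 0.0079, and without STM2457 RIP replicate 1, 2 or 3 it was 705 and 93, 218 and 92, or 270 and 85.

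**Figure D1:**
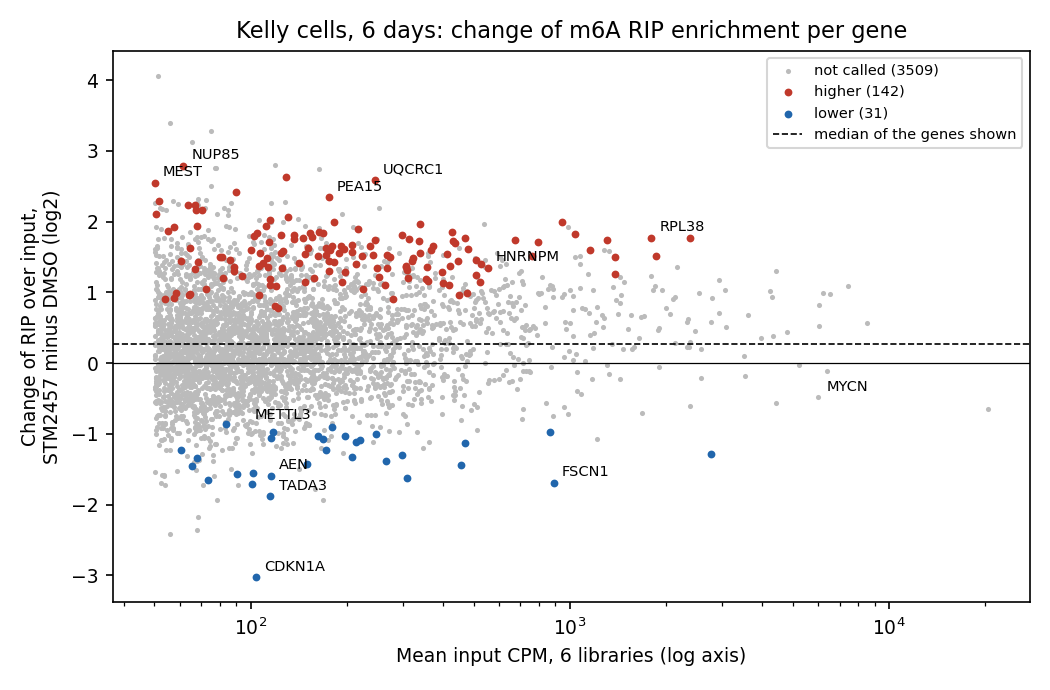
Change of RIP over input with STM2457 (log2, vertical axis) against mean input CPM (log axis) for 3682 genes, with called genes in colour and the median of all genes as a dashed line. The 142 called rises lie between 0.78 and 2.79, and CDKN1A lies lowest of all at -3.03.

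The zero line of these changes is set by the scaling of the libraries. With TMM factors taken separately within input and within RIP libraries, 96 genes were called higher and 54 lower, which is 64.0% of calls upward against 82.1% with 1 set of factors, and with TMM on the 3682 genes alone 121 and 82 (59.6%). Those settings moved the median change to 0.08 each. When RIP libraries were scaled to mitochondrially encoded mRNA instead, the median change was -2.03, and 0 genes were called higher and 1894 lower. That reference includes 2 libraries whose mitochondrially encoded share stood apart from their group. They are DMSO RIP replicate 3 (0.0767% against 0.265% and 0.302%) and STM2457 input replicate 3 (1.79% against 5.09% and 4.06%). All directions below are therefore relative to the bulk of mRNAs in the same libraries.

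Among the largest rises, UQCRC1 (chr3:48599002-48610976), a core subunit of respiratory complex III, measured 6.09, 2.54 and 4.52 CPM in the DMSO RIP libraries and 23.3, 18.96 and 18.96 CPM in the STM2457 RIP libraries. Every STM2457 RIP library was above every DMSO one, while the inputs went the other way, from 258 to 269 CPM down to 198 to 208 CPM. Its enrichment rose by 2.59 ± 0.33 (log2 change ± SE; edgeR adjusted p = 0.0137). In both treatments it stayed far below the level of input, with a log2 ratio of RIP over input of -5.68 ± 0.51 (SD, n = 3) under DMSO and -3.27 ± 0.16 under STM2457.

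SSBP1, which coats single-stranded mitochondrial DNA during its replication, measured 9.36, 6.39 and 6.55 CPM in DMSO RIP and 38.4, 37.5 and 25.9 CPM in STM2457 RIP, with no overlap. Its change was 2.62 ± 0.40 (edgeR adjusted p = 0.0150). MEST, an imprinted gene of the alpha/beta hydrolase fold, went from 2.18, 2.05 and 1.66 CPM to 10.1, 12.5 and 12.5 CPM in RIP, at inputs of 45.3 to 50.8 CPM throughout. The change of MEST was 2.55 ± 0.33 (edgeR adjusted p = 0.0137) and 4.78% of its exon bases are shared with COPG2 on the other strand.

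NUP85, a scaffold subunit of the nuclear pore, had the largest called rise, 2.79 ± 0.62 (edgeR adjusted p = 0.0417), and also the widest spread. Its STM2457 RIP values were 13.5, 45.0 and 70.3 CPM, against 8.82, 5.65 and 7.29 CPM in DMSO RIP. The lowest STM2457 library, replicate 1, was thus closer to the DMSO libraries than to the other two. NCAPG2, a subunit of condensin II, had the same shape, with 6.40, 14.7 and 15.7 CPM in STM2457 RIP against 2.91, 2.95 and 1.57 CPM, and a change of 2.42 ± 0.46.

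PEA15, a small adaptor that binds ERK kinases, rose from 30.8, 16.3 and 32.6 CPM in DMSO RIP to 86.1, 110 and 165 CPM in STM2457 RIP at nearly equal inputs, a change of 2.35 ± 0.38 (edgeR adjusted p = 0.0156). CKS1B and CKS2, the pair of small subunits that ride on cyclin-dependent kinases, both rose. CKS1B went from 6.63, 5.00 and 4.89 CPM to 19.3, 29.1 and 21.2 CPM, a change of 2.24 ± 0.33. CKS2 went from 90.8, 74.0 and 41.6 CPM to 141, 178 and 269 CPM, a change of 2.17 ± 0.41, so that its RIP level passed from near its input level to clearly above it. RPS27L, a p53-responsive relative of a ribosomal protein, and NDUFA1, a small subunit of complex I, completed the 10 largest with 2.29 ± 0.46 and 2.24 ± 0.48, and in both the input fell as the RIP level rose.

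The largest fall was that of CDKN1A (chr6:36676460-36687339), which encodes the cell cycle inhibitor p21. It measured 94.2, 88.1 and 158 CPM in DMSO RIP and 4.27, 7.38 and 4.78 CPM in STM2457 RIP, where 100, 130 and 65 fragments lay behind the values. The input fell too, from 154, 132 and 146 CPM to 47.6, 56.6 and 66.3 CPM. RIP changed by -4.37 and input by -1.34, which left a change of enrichment of -3.03 ± 0.38 (edgeR adjusted p = 0.0137). From a RIP level near that of input (log2 ratio -0.39 ± 0.46, SD, n = 3), CDKN1A went to -3.19 ± 0.35.

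TADA3, an adaptor subunit of histone acetyltransferase complexes, fell from 19.7, 19.98 and 21.0 CPM in DMSO RIP to 4.44, 7.61 and 5.22 CPM in STM2457 RIP, at inputs of 103 to 118 CPM in both. Its change was -1.88 ± 0.28 (edgeR adjusted p = 0.0150). Of its exon bases 19.7% overlap ARPC4 or OGG1 on the other strand, and without a strand setting fragments of such partners cannot be told apart. FSCN1, which bundles actin filaments, showed opposite movements of its parts: inputs rose from 666 to 684 CPM to 940 to 1085 CPM, and RIP fell from 365, 289 and 370 CPM to 107, 206 and 163 CPM. The change of FSCN1 was -1.69 ± 0.29 (edgeR adjusted p = 0.0202).

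AEN, a p53-induced nuclease, and TMEM119 were clearly enriched under DMSO and lost most of that. AEN measured 562, 477 and 430 CPM in DMSO RIP and 158, 223 and 185 CPM in STM2457 RIP, at inputs of 98.7 to 123 CPM. Its log2 ratio went from 2.24 ± 0.20 to 0.66 ± 0.25 (SD, n = 3), a change of -1.59 ± 0.22 (edgeR adjusted p = 0.0150). TMEM119 went from 1.55 ± 0.33 to -0.01 ± 0.39, a change of -1.56 ± 0.30. SERPINH1, the collagen chaperone of the endoplasmic reticulum, fell from 102, 82.5 and 96.6 CPM to 36.1, 28.2 and 17.6 CPM in RIP, a change of -1.66 ± 0.32. The other 4 of the 10 largest falls were ATP6V0E2, a subunit of the vacuolar proton pump, at -1.71, SLC25A6, an ATP/ADP carrier of the inner mitochondrial membrane, at -1.62, PARP6 at -1.57 and UTP14A, a factor of small ribosomal subunit assembly, at -1.46.

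**Figure D2:**
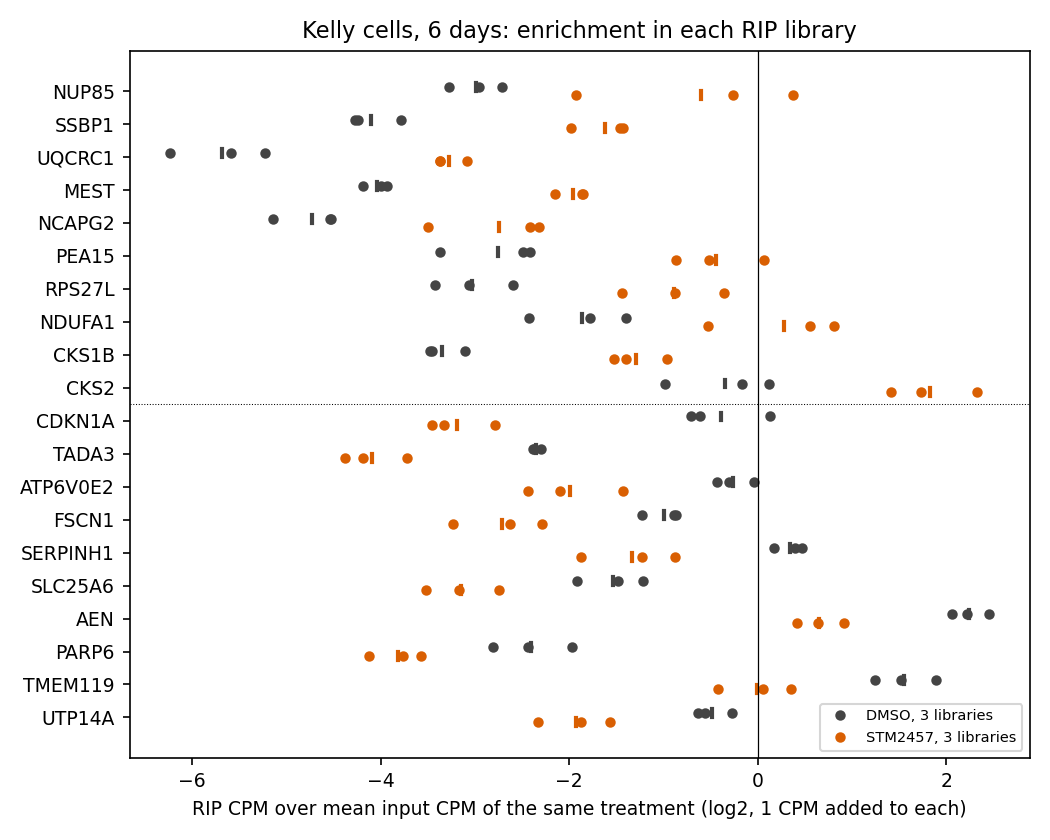
Log2 ratio of each RIP library to the mean input of its treatment, with 1 CPM added to each, for the 10 largest called rises (above the dotted line) and the 10 largest called falls; points are the 3 libraries of a group and short bars their mean. No STM2457 point overlaps the DMSO points of its gene, and NUP85 has the widest STM2457 range, from -1.92 to 0.37.

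RIP and input levels differed for most of the 3682 genes in both treatments, more often with RIP lower than input. Under DMSO 940 of the 3682 genes were higher in RIP than in input and 2134 lower (25.5% and 58.0%; 28.8% and 29.2% of all tested genes; edgeR), and under STM2457 986 and 1974 (26.8% and 53.6%; 30.8% and 28.8%).

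The called changes lay mainly on the RIP side. Of the 142 rises, 134 had a larger change in RIP than in input, and in 116 the input moved the opposite way, with a median of 1.24 in RIP and -0.23 in input. All 31 falls had the larger change in RIP, with medians of -1.19 and 0.11, and in 23 the input moved up. The calls were chosen on RIP minus input, so these counts and medians follow in part from that choice. Over all 3682 genes, Spearman's rho of the change was 0.89 with its RIP side and -0.37 with its input side, which share its libraries. In the fit of all 12 libraries, RIP was called for 714 higher and 178 lower genes (19.4% and 4.83%; 9.73% and 5.1% of all tested genes) and input for 21 and 11 (0.57% and 0.299%; 0.21% and 0.173%). Those side counts, and the calls of changed enrichment with their SEs, rest on 1 spread per gene for both kinds of library. The kinds differed widely in spread. Fitted alone, the 6 RIP libraries had a biological coefficient of variation of 0.719 and gave 2 higher and 7 lower genes (0.0246% and 0.107% of all genes tested there), while the 6 inputs had 0.0913 and gave 705 and 941 (11.9% and 14.7%). CDKN1A was called in either fit alone, at -4.58 in RIP (edgeR adjusted p = 0.00126) and -1.38 in input (adjusted p = 3.41e-08). Of the other large falls named above, only AEN was called in RIP alone, at -1.57 (edgeR adjusted p = 0.0273). None of the largest rises named above was called in RIP alone, with edgeR adjusted p from 0.0674 for PEA15 to 0.429 for RPS27L.

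Of the methylation machinery, 3 of 9 genes of the methyltransferase complex and its partners reached 50 CPM, and 0 of them were called. METTL3 itself measured 142, 93.7 and 117 CPM in DMSO RIP and 43.4, 67.0 and 87.6 CPM in STM2457 RIP, at inputs of 87.6 to 99.9 CPM (6.62% of its exon bases are shared with TOX4 on the other strand). The groups did not overlap, with the STM2457 values lower, but the change of -0.88 ± 0.33 did not pass (edgeR adjusted p = 0.201). RBM15B, an adaptor that brings the complex to its RNAs, stayed strongly enriched, with log2 ratios of 2.85 ± 0.21 under DMSO and 2.60 ± 0.27 under STM2457 (SD, n = 3), with 20% of its exon bases shared with DCAF1 on the other strand. ZC3H13, which holds the complex in the nucleus, spread from 412 to 2052 CPM across the STM2457 RIP libraries, with replicate 1 highest, against 471 to 639 CPM in DMSO RIP. Of the 13 m6A readers listed 8 were measured at this level, 0 were called and 7 lay above 0. HNRNPC changed by 0.56, and HNRNPA2B1 changed by 1.60 (edgeR adjusted p = 0.172) with 916 CPM in STM2457 RIP replicate 1 and 196 CPM in replicate 3. Neither demethylase of the list, FTO or ALKBH5, reached 50 CPM.

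MYCN, the amplified driver gene of these cells, was among the most abundant mRNAs, with 5124 to 5318 CPM in DMSO input and 5841 to 6828 CPM in STM2457 input. Its RIP values were 12157, 13004 and 17370 CPM under DMSO and 13263, 11261 and 11578 CPM under STM2457, which overlap. Set against the higher STM2457 inputs, the ratios of RIP over input were lower in all 3 STM2457 libraries than in the DMSO libraries. Its enrichment changed by -0.49 ± 0.26 (edgeR adjusted p = 0.390), from a log2 ratio of 1.43 ± 0.27 to 0.96 ± 0.13 (SD, n = 3). Of 8 measured genes of MYCN and its partners 0 were called, and 5 lay above 0. NCL, the nucleolar protein nucleolin, shows how far the STM2457 RIP libraries could part, with 4214, 1138 and 608 CPM in replicates 1 to 3 against 357 to 740 CPM in DMSO RIP, and a change of 1.59 (edgeR adjusted p = 0.325).

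Genes of the respiratory chain encoded in the nucleus had the most calls of the lists described. Of 59 measured, 13 rose and 0 fell, 53 lay above 0 and the median change was 1.18, against 3.86% called higher and a median of 0.27 over all 3682 genes. The called rises were in complex I (7 of 28), ATP synthase (4 of 14) and complex III (2 of 8), and 0 of 8 genes of complex IV with cytochrome c were called, with a median of 0.89 there. NDUFS6, an accessory subunit of complex I, measured 39.9, 42.9 and 26.8 CPM in DMSO RIP and 61.8, 84.9 and 91.2 CPM in STM2457 RIP, and rose by 1.89 ± 0.28. ATP5F1C, the central stalk of ATP synthase, rose by 1.94 ± 0.32 from very low RIP levels of 2.49 to 2.78 CPM, and NDUFV1, which binds the NADH of complex I, rose by 1.55 ± 0.29. Over the list, the median log2 ratio of RIP over input was -2.69, -2.89 and -3.04 in the DMSO libraries and -2.11, -1.80 and -1.88 in the STM2457 libraries. The list medians thus lay below input in all 6 RIP libraries and higher in the STM2457 ones, while single members such as NDUFA1 passed above input in STM2457 replicates 2 and 3. Part of the shift lay in the input, with a median of -0.52, and without DMSO RIP replicate 3 the median change was 0.84.

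The 77 measured cytosolic ribosomal protein genes and their paralogs had a median change of 0.82, with 72 above 0, but only RPL38 and RPS27L were called. Without DMSO RIP replicate 3 that median was 0.49, and 3.86% of all 3682 genes were called higher with all libraries. RPL38 measured 105, 77.2 and 67.5 CPM in DMSO RIP and 137, 193 and 186 CPM in STM2457 RIP, at inputs that fell from 2110 to 2192 CPM to 1190 to 1373 CPM, and changed by 1.78 ± 0.26. Ribosomal protein genes have many near-identical processed copies, and their values are uncertain to that extent. The 13 mitochondrially encoded mRNAs, which the nuclear METTL3 complex does not reach, all lay above 0 with a median of 1.76, and 12 had groups that did not overlap with STM2457 higher (13.2% of all tested genes did so), but 0 were called. MT-CO1 and MT-ND4, subunits of complexes IV and I, measured 1.47 and 1.98 (edgeR adjusted p = 0.219 and 0.192). DMSO RIP replicate 3 was lowest for them, with a median log2 ratio of -5.90 against -3.92 and -3.98 in the other DMSO libraries and -2.56 to -2.93 under STM2457. Without it their median change was 1.15. STM2457 input replicate 3 stood apart as well, with a mitochondrially encoded share of 1.79% against 5.09% and 4.06% in its group and 1506 CPM of MT-ND4 against 5983 and 5211 CPM. Without that input the median input side of the 13 mRNAs went from -0.55 to -0.14 and their median change to 1.43, a fit chosen after seeing the data.

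SR and hnRNP splicing factors, which bind exons and introns of other transcripts, gave 4 rises and 0 falls among 25 measured, with a median of 0.58. Without DMSO RIP replicate 3 that median was 0.21. For this and the following lists, 3.86% of all 3682 genes and 1.26% of all tested genes were called higher. HNRNPM went from 756, 798 and 769 CPM in DMSO RIP to 1660, 2314 and 2125 CPM in STM2457 RIP at level inputs of 502 to 559 CPM, a change of 1.35 ± 0.20 (edgeR adjusted p = 0.0150). HNRNPM was already enriched under DMSO at 6 days, but not in the 1 day DMSO libraries, where its log2 ratio was -1.45. HNRNPK, SRSF7 and SRSF5 rose by 1.72, 1.501 and 1.11 from below their input level. In the remaining lists few genes were called. SCG3, a protein of secretory granules, rose by 1.43 ± 0.29 as the one call among 7 granule and catecholamine genes, and AURKB, the kinase of the chromosomal passenger complex, rose by 1.54 ± 0.27 as the one call among 22 proliferation genes. Neurite and axon genes (20 measured), chromatin regulators (18), amino acid response genes (17), zinc finger genes of chromosome 19 (9), immediate early genes (8), cholesterol genes (7) and genes of S-adenosylmethionine supply (2) gave 0 calls, with medians from -0.23 for the zinc finger genes to 0.72 for the cholesterol genes and 0.69 for the pair of S-adenosylmethionine genes, AHCY at -0.63 and MAT2A at 2.00. None of the most abundant genes of these lists passed: UCHL1, a ubiquitin hydrolase of neurons, measured 0.63 and NEFH, the heavy neurofilament chain, 0.50, the chromatin genes SMARCA4 and BRD2 0.38 and -0.36, FDPS of isoprenoid and sterol synthesis 0.91, JUND and ID3 -0.59 and -1.13, and ZNF428 and ZNF787 -0.16 and -1.11. Among the amino acid response genes ATF4, their transcription factor, went from 1301 to 1332 CPM in DMSO input to 769 to 778 CPM in STM2457 input and fell in RIP as well, so its enrichment changed by -0.43. PHGDH, the first enzyme of serine synthesis, went from 537 to 599 CPM to 256 to 266 CPM in input, with a change of enrichment of 0.16. In the fit of inputs and RIP together, 4 of the 17 genes were called lower in input (0.299% of the 3682 genes; 0.173% of all tested genes). ATF4 was not called in input there (edgeR adjusted p = 0.165), but it was with the inputs fitted alone (edgeR adjusted p = 1.39e-07).

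**Figure D3:**
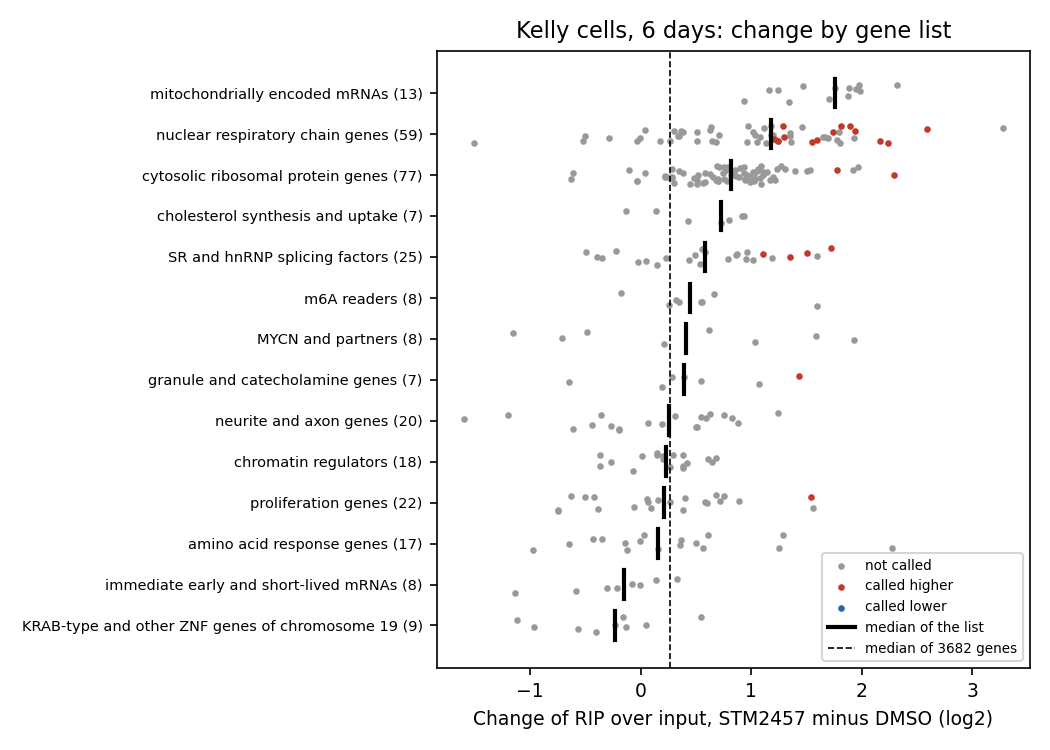
Change of RIP over input with STM2457 (log2) for the measured genes of the lists described that have at least 7 genes, with the number in brackets, called genes in colour, list medians as bars and the median of all 3682 genes as a dashed line. Mitochondrially encoded mRNAs and nuclear respiratory chain genes lie farthest right, with medians of 1.76 and 1.18.

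The changes varied with features that did not enter the choice of genes. These values describe the genes and carry no test. Ordered by the ratio of RIP over input in DMSO cultures of Kelly cells at 1 day, which share no library with the change at 6 days, the decile with the lowest ratio had a median change of 0.77 and the next 3 deciles 0.66, 0.53 and 0.41, while the 4 deciles with the highest ratios lay between -0.01 and 0.13. Ordered by the same ratio in NGP cells no such order was seen, with 0.33 in the lowest decile and 0.37 in the highest. By GC content of the canonical transcript, the median change went from 0.75 in the lowest decile (32.7% to 41.8% GC) to -0.03 in the highest (64.0% to 73.4%). By transcript length, the shortest decile (up to 1069 bases) had a median of 0.71, the next 0.45 and the longest (at least 6925 bases) 0.29. The deciles between them lay at 0.14 to 0.24, so there was no steady decline with length. The called rises came from shorter and less GC-rich transcripts, with medians of 1802.5 bases and 48.8% GC, than all genes, with 2943 bases and 54.5%, and the called falls from transcripts of 2058 bases and 59.4%. GGACT was present in the coding sequence of 50.7% of the called rises, 71.0% of the called falls and 74.95% of all genes with a transcript, searched on the sense strand only. Median coding length differed too, with 798 bases in the called rises, 1005 in the called falls and 1371 in all genes with a transcript. Depth and the spread of the RIP libraries differed between the treatments, and GC content and length between the gene sets. Their part in the result was not tested.

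**Figure D4:**
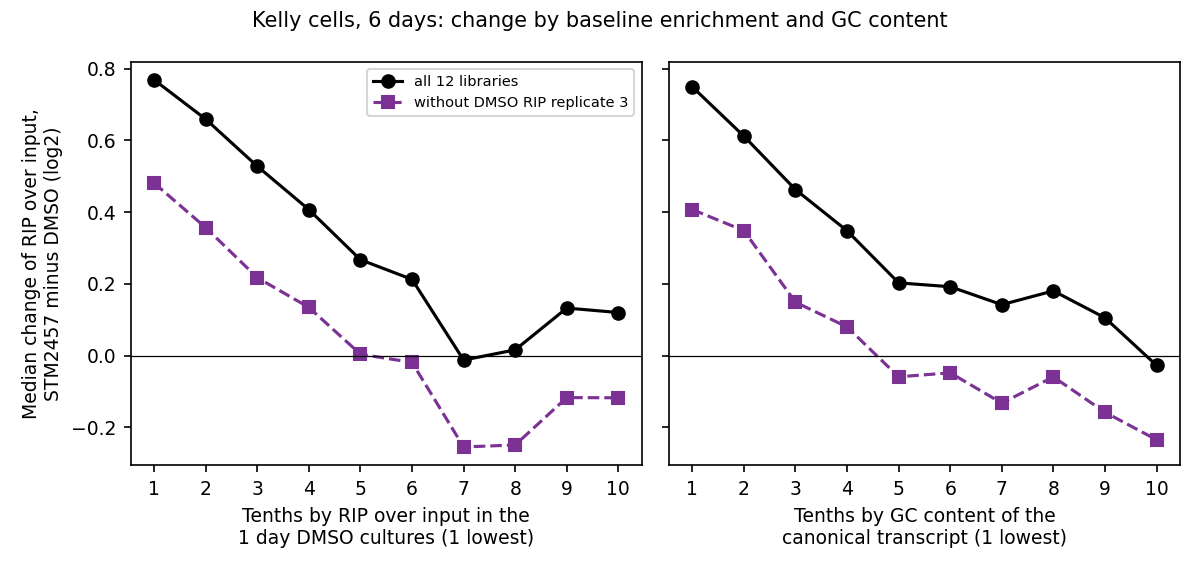
Median change of RIP over input (log2) in deciles of the 3682 genes by their ratio of RIP over input in 1 day DMSO cultures (left) and in deciles of those with a transcript by GC content (right), with all 12 libraries and without DMSO RIP replicate 3. In both panels the median falls from the lowest decile, at 0.77 and 0.75, and leaving out that library lowers the median of every decile.

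The dependence on GC content was also read in each library. The median log2 ratio of the GC-richest decile minus that of the GC-poorest was 1.69, 1.45 and 2.05 in the DMSO libraries and 0.40, 0.86 and 1.21 in the STM2457 libraries, with no overlap. The difference was -0.91, and the exact permutation test (two-sided, 3 against 3) gave its smallest possible p, 0.10. The same measure for the decile with most GGACT per kilobase minus that with least was 1.02, 0.827 and 1.17 against 0.581, 0.454 and 0.618, a difference of -0.46 with the same exact p of 0.10. For length it was 2.37, 2.55 and 2.68 against 2.40, 1.68 and 1.74, which overlap, with a difference of -0.59 (exact permutation p = 0.20).

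The question of whether the antibody still told enriched from depleted mRNAs under STM2457 was put to gene sets ranked in the DMSO libraries of NGP, another MYCN-amplified neuroblastoma line. The median log2 ratio of the 10% most enriched genes (366) minus that of the 10% least enriched was 4.16, 4.47 and 4.13 in the DMSO libraries and 5.03, 3.61 and 3.75 in the STM2457 libraries. The difference of -0.12 was smaller than the spread of the STM2457 libraries (SD 0.778; exact permutation p = 1), and 3 against 3 libraries cannot go below 0.10. STM2457 replicate 1 was above all DMSO libraries, and replicates 2 and 3 were below them; without replicate 1 the difference was -0.57, and without replicate 2 or 3 it was 0.14 or 0.07. With sets ranked on Kelly cells at 1 day the values were 6.09, 6.13 and 6.08 against 6.09, 5.38 and 5.81, a difference of -0.34 (exact permutation p = 0.20). Over all 3682 genes, the range from the 10th to the 90th percentile of the log2 ratio was 5.45 to 5.602 under DMSO and 4.86 to 5.598 under STM2457.

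The same contrast after 1 day, in other Kelly libraries, served as a comparison that the 6 day fit did not use. There 875 genes were called higher and 518 lower of the same 3682 (23.8% and 14.1%; 9.53% and 7.62% of all tested genes at 1 day). Of the 142 rises at 6 days, 133 were above 0 at 1 day and 107 were called in the same direction (75.4% of the rises at 6 days, 12.2% of those at 1 day). Of the 31 falls, 30 were below 0 and 17 were called (54.8%, and 3.28% of the falls at 1 day). Among all genes above 0 at 6 days 67.5% were above 0 at 1 day, and among those below 0 72.7% were below. Spearman's rho between the changes at both times was 0.593 over 3682 genes; genes are not independent, and both fits share the annotation and gene properties such as GC content and length. In NGP cells after 6 days the fit called 0 genes (edgeR; 212 higher and 92 lower of 3660 at an unadjusted p under 0.05), and 128 of the 142 rises and 26 of the 31 falls had the same sign there, against 64.8% of all genes above 0 and 58.6% of those below 0 (rho 0.387).

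**Figure D5:**
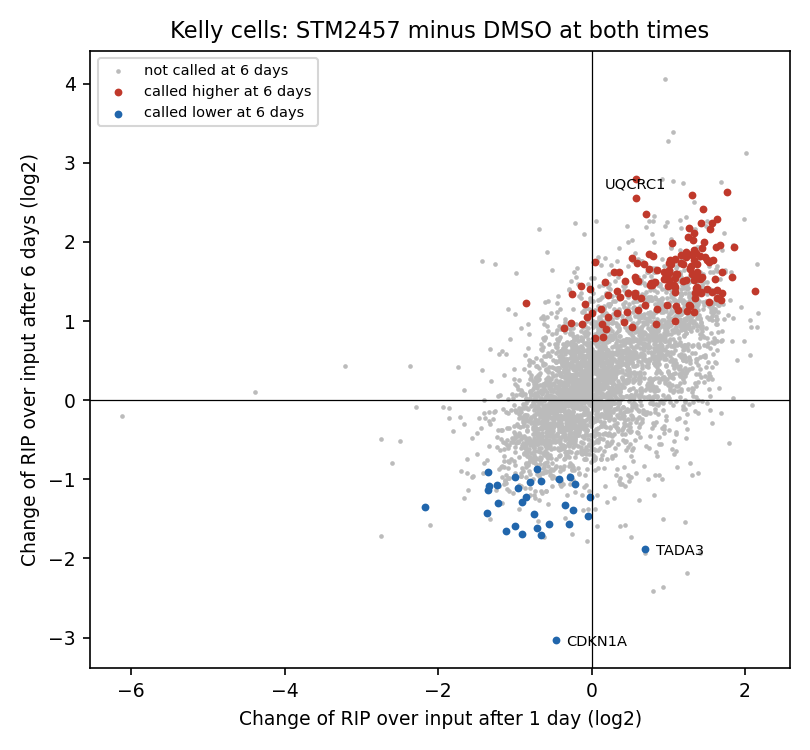
Change of RIP over input with STM2457 after 6 days (vertical, log2) against that after 1 day (horizontal, log2) in Kelly cells, for 3682 genes with those called at 6 days in colour. The called rises gather in the upper right, where 133 of 142 lie, and TADA3 is the 1 called fall right of 0, at 0.70 after 1 day and -1.88 after 6.

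A few genes changed differently at 6 days and at 1 day. The 3-way interaction of treatment, library type and experiment was called for 9 genes higher at 6 days and 8 lower (0.244% and 0.217%; 0.175% and 0.175% of all tested genes). TADA3 went from 0.70 at 1 day to -1.88 at 6 days, a difference of -2.63 ± 0.35 (edgeR adjusted p = 0.00123). CDKN1A went from -0.46 to -3.03, a difference of -2.61 ± 0.46 (edgeR adjusted p = 0.0153). Against NGP, 4 genes were higher in Kelly and 3 lower (0.109% and 0.0815%; 0.0704% and 0.317% of all tested genes). Among them were CDKN1A at -2.74 ± 0.56 and PEA15 at 2.35 ± 0.45 (edgeR adjusted p = 0.0322 and 0.0182). Per the file headers the experiments lie in separate folders, and cell line or time cannot be told apart from such a batch. Leaving out any of the 6 inputs of Kelly at 6 days left 3 to 4 genes against 1 day and 1 to 3 against NGP. Without STM2457 RIP replicate 1, 2 or 3 there were 181, 144 or 72 against 1 day and 122, 61 or 26 against NGP, without DMSO RIP replicate 3 30 against 1 day, and without DMSO RIP replicate 1 or 2 15 or 12 against NGP.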

How the data were processed

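The authors deposited raw fragment counts per gene for each library. Per the file headers, featureCounts (Subread 1.5.3) summed exons by gene name in paired mode on a protein-only GENCODE 33 annotation. FastQC 0.11.5, Trimmomatic 0.36, HISAT2 2.1.0 and deepTools 2.0 are named, without roles, in the submitters' processing notes, with build GRCh38. Per the labels' protocols poly(A) RNA was sonicated and spike-in RNAs were added (not analysed here). No strand option is given in the headers.

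The deposited counts were fitted with edgeR 4.0.16 (R 4.3.3): 4 group means over the 12 libraries, TMM, filterByExpr (minimum count 10, total 15), two-sided quasi-likelihood tests with 8 residual degrees of freedom, Benjamini-Hochberg at 0.05 over all genes tested. The change of enrichment is the interaction; SEs come from its F value. CPM in the text are TMM-scaled; ratios per library are log2 with 1 CPM added, so they understate changes of low genes and differ from fitted values. The 50 CPM minimum used library totals. Comparisons between experiments used 3-way interactions. No replicate pair was as close as sampling noise (lowest chi-square per degree of freedom 2.73). Of gene names, 95.4% were found in GENCODE 44, with 96.0% of exons identical. The fit was tested on simulated counts.

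The genes, lists, alternatives and naming rule were chosen with earlier results of these data known. Named are the 10 largest called rises and falls without overlap, called genes of each list (up to 4, otherwise its 2 most abundant), METTL3, METTL14, WTAP, FTO, ALKBH5 and MYCN where at 50 CPM, and the 2 largest called differences from each other experiment. A few genes that this rule names, and 1 gene list, are not reported here. Alternatives were RLE factors, TMM by library type or on the 3682 genes, a mitochondrial reference, no filter, DESeq2 1.42.0, replicate blocks, other CPM minimums and each library left out; added after seeing the data were limma 3.58.1 voom with quality weights, a 10 CPM filter, RIP or input libraries alone, and 1 input left out for mitochondrial mRNAs.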

Additional observations from a re-analysis of the deposited data

Results flagged for a closer look

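The tests of the difference between experiments singled out 17 of the 3682 genes against Kelly cells at 1 day and 7 against NGP cells. Against 1 day, 9 were higher and 8 lower (0.244% and 0.217%; 0.175% and 0.175% of all tested genes). Against NGP, 4 were higher and 3 lower (0.109% and 0.0815%; 0.0704% and 0.317% of all tested genes). TADA3 had the largest difference from 1 day, -2.63, followed by CDKN1A at -2.61. Against NGP the largest were CDKN1A at -2.74 and PEA15 at 2.35. In TADA3 the directions were opposite at both times, with called changes of 0.70 at 1 day (edgeR adjusted p = 0.0274) and -1.88 at 6 days. Groups of 3 libraries were not tested for outlying values.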

How the results depend on the processing

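All 173 calls kept their direction under every alternative except the mitochondrial reference, under which 11 of the 142 rises and all 31 falls did. The number called was less steady. Rises numbered 0 with the mitochondrial reference, 373 with DESeq2 and 239 with voom weights, and 0 to 705 with 1 library left out. Falls numbered 54 with TMM by library type, 82 with TMM on the 3682 genes, 1894 with the mitochondrial reference, 107 with DESeq2, 53 with the 10 CPM filter, and 0 to 93 with 1 library left out. The median change was 0.084 with TMM by library type, 0.076 with TMM on the 3682 genes, 0.15 with the 10 CPM filter, -2.03 with the mitochondrial reference, and 0.0079 to 0.304 with 1 library left out. Genes called in RIP numbered 3058 with the mitochondrial reference, 323 with voom weights, 9 from RIP libraries alone and 568 to 1469 with 1 library left out. Those called in input numbered 50 with TMM on the 3682 genes and with the 10 CPM filter, 0 with the mitochondrial reference, 96 with DESeq2, 1835 with voom weights, 1646 from inputs alone and 1 to 125 with 1 library left out. The contrast of enriched and depleted sets ranged from -0.57 to 0.14. Genes that differed from 1 day numbered 11 with RLE factors, 9 with no filter and 3 to 181 with 1 library left out, and from NGP 3 with no filter and 1 to 122. The cause of these shifts was not tested.

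The labels do not say whether equal replicate numbers mark input and RIP of 1 culture. Of 18 pairs of same-numbered libraries, many of them across treatments, 4 correlated above 0.1 in their deviations (range -0.39 to 0.32). STM2457 input and RIP libraries of the same number correlated at 0.32, 0.082 and 0.24, and those of different numbers at -0.28 to 0.069. For DMSO the values were 0.055, 0.15 and -0.0043 against -0.18 to 0.10. The numbers may thus pair input and RIP within a treatment. With the replicate block 0 rises and 0 falls were called (edgeR; lowest adjusted p = 0.0513; 934 genes at an unadjusted p under 0.05), with the number within each treatment as a replicate block also 0 and 0 (lowest adjusted p = 0.0958). The replicate block left 7 genes called in input, 2 that differed from 1 day and 3 from NGP.

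With the mitochondrial reference the direction turned for PEA15 (-0.038), ZC3H13 (-1.79), HNRNPA2B1 (-0.81), HNRNPC (-1.64), MAT2A (-0.96), NCL (-1.04), UCHL1 (-1.90), NEFH (-2.06), SCG3 (-0.68), AURKB (-0.78), PHGDH (-2.18), HNRNPM (-0.94), SRSF5 (-1.15), HNRNPK (-0.34), SRSF7 (-0.58), FDPS (-1.34), SMARCA4 (-1.93), RPL38 (-0.38), NDUFS6 (-0.19), ATP5F1C (-0.30) and NDUFV1 (-0.98). PHGDH also turned with TMM by library type (-0.018) and with TMM on the 3682 genes (-0.021), and ZNF428 with voom weights (0.059). With 1 library left out PHGDH ranged from -0.10 to 0.32 (lowest without DMSO RIP replicate 3), ZC3H13 from -0.17 to 1.06 and NEFH from -0.43 to 0.86 (both lowest without STM2457 RIP replicate 1), ZNF428 from -0.34 to 0.080 (highest without that library) and UCHL1 from -0.048 to 0.94 (lowest without STM2457 RIP replicate 2).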

Other observations

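Several families outside the lists were looked at after their values had been seen, so their counts describe these libraries and test nothing. Proteasome subunits, the parts of the protease that degrades ubiquitin-tagged proteins, had a median change of 1.07, with 20 of 25 measured above 0.27, the median of the 3682 genes, and PSMB6, PSMC1, PSMC3 and PSMD8 were called higher. Sm and LSm proteins, which form rings on small nuclear and decay-bound RNAs, had a median of 1.12, with 17 of 19 above that of all genes, and LSM3, LSM4, SNRPD2 and SNRPE called higher. Mitochondrial ribosomal proteins had 18 of 44 above it, a median of 0.10 and 1 call, MRPL15. Tubulin chains had 0 of 10 above it and a median of -0.56, with TUBB and TUBB2B called lower at -1.29 and -1.13. TUBB measured 1411, 1410 and 1497 CPM in DMSO RIP and 539, 704 and 648 CPM in STM2457 RIP.

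Pairs of related genes were called together in several cases, also seen only after the values. HMGN1 and HMGN2, nucleosome-binding proteins, rose by 1.99 and 1.52, and HMGB1 and HMGB3, DNA-bending proteins, by 1.72 and 1.51. BEX1 and BEX2, neighbours on the X chromosome expressed in neural cells, rose by 1.60 and 1.44. Among the falls were the transcription factors E2F1 at -1.11 and HSF1 at -1.03. Paralogs can share fragments, so values of such pairs are not independent.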
